A study of Mus musculus with 4 samples.

Results

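The genes described here encode the B cell receptor complex and its signalling machinery. They are 32 genes chosen by symbol, and all 32 were found among the 26214 gene symbols counted. Reads were counted per gene in RNA from the stromal vascular fraction of mouse inguinal white adipose tissue (iWAT SVF), the non-floating cells of digested fat under the skin of the groin. There were 2 libraries from mice treated with a medicinal herb extract (MHE) and 2 from mice treated with phosphate-buffered saline (PBS), each labelled a biological replicate. The labels state no strain, sex, age, diet, dose or duration, nor the composition of the extract, nor whether a library is 1 animal or a pool. The deposited names of the PBS libraries carry the prefix HFD and those of the MHE libraries another, which the labels do not explain. The extract therefore cannot be told apart from any other difference in diet, treatment or day that the prefixes may stand for. Triplicates are mentioned in the protocols, while each group here holds 2 libraries. Of the 32 genes, 7 are known to be shared with myeloid cells (Syk, Lyn, Btk, Plcg2, Ptpn6, Inpp5d and Vav1), and the remaining 25 form the B cell restricted class. Several of the 25, such as Fcgr2b, Cd83, Cd180 and Ly86, are known from macrophages or dendritic cells too. A narrow set of 8 that is known almost entirely from B cells was therefore described separately: Cd79a, Cd79b, Blk, Bank1, Cd22, Fcrl1, Fcrla and Vpreb3. It was chosen with earlier results of these data known.

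The B cell receptor is a membrane immunoglobulin held by a pair of signalling chains, CD79A and CD79B, whose cytoplasmic tails carry tyrosine motifs. When antigen binds, the kinases LYN and BLK phosphorylate those tails, the kinase SYK docks there, and the scaffold BLNK brings BTK and PLCG2 together to release calcium and activate protein kinase C beta. Inhibitory receptors such as CD22 and FCGR2B oppose the signal by recruiting the phosphatases SHP-1 (Ptpn6) and SHIP-1 (Inpp5d). Fat holds resident B cells, and the inguinal fat pad also encloses a lymph node.

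Promoter sequence is shown for a few members because 2 of the 32, Spib and Pou2f2, encode factors that bind known B cell promoter motifs, the ETS core and the octamer. The 250 bases before a RefSeq start site (GRCm38.p6, plus strand for all 4) follow for the signalling chain gene Cd79a, for the members with the largest and the smallest fold change among those that passed the test (Fcrl1 and Cd38), and for Vpreb3, chosen after the search as one of the members that held both motifs (the other was Blnk, the sole member whose groups overlapped, not shown). Capitals mark the ETS core AGGAAGT and the octamer ATGCAAAT on either strand.
Cd79a, chr7:24897247-24897496: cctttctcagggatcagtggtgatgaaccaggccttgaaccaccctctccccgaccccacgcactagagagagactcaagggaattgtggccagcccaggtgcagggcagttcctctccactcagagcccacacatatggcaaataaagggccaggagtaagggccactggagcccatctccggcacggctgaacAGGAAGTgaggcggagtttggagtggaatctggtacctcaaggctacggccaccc
Fcrl1, chr3:87376137-87376386: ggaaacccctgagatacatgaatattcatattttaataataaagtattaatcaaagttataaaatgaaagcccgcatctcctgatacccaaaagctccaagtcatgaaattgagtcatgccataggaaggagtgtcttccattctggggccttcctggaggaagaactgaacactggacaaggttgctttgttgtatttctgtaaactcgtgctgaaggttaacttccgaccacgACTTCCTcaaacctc
Vpreb3, chr10:75948050-75948299: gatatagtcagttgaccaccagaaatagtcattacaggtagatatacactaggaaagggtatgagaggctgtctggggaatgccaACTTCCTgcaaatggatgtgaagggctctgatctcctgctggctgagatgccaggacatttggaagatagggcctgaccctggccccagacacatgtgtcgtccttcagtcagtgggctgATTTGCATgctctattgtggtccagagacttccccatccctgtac
Cd38, chr5:43868559-43868808: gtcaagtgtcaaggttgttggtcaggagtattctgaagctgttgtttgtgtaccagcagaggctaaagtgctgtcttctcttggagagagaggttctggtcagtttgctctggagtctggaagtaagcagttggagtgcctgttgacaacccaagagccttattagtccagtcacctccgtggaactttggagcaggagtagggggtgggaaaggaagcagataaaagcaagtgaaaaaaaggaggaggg
The ETS core began 55 bases before the start site in Cd79a, 15 before it in Fcrl1 and 165 before it in Vpreb3, where the octamer began 45 bases before it. These letters were not in the Cd38 window. The start sites are those of the promoter entries. In the RefSeq gene table Cd79a and Cd38 begin at the base after their windows, while Vpreb3 and Fcrl1 have wider spans. There Vpreb3 spans 75943024 to 75949657, so its window lies inside the gene. Fcrl1 begins there at 87376353, so its ETS core also lies inside the gene. Over the 28 members matched to a promoter entry, 10 held the ETS core (7 of 22 restricted and 3 of 6 shared), against 8.8% of the 27025 genes with an entry. The octamer was found in 3 (Blnk, Prkcb and Vpreb3), all restricted, against 1.81% of genes. The motifs do not overlap one another in the windows shown. A match describes letters in a window and is not a measured binding site.

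All 32 members had higher fitted levels with the extract than with saline, by 0.48 to 5.69 on the log2 scale with a median of 2.46, where the median of all 16196 genes tested was -0.02. Each of the 32 passed the filter on low counts. By edgeR's quasi-likelihood test with Benjamini-Hochberg adjustment over all genes tested, 9 of 32 rose and none fell, and 28 of 32 had an unadjusted p under 0.05. Over all genes tested, 3.97% were called higher, 0.963% lower, and 28.6% had an unadjusted p under 0.05 in either direction. The 9 were Fcrl1, Vpreb3, Cd22, Bank1, Pou2f2, Plcg2, Swap70, Dapp1 and Cd38. Both MHE libraries lay above both PBS libraries in 31 of 32 members, against 33.1% of all genes tested, and Blnk was the exception. In a bulk sample, fewer cells of a type and less RNA per cell cannot be told apart.

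In most of the 32 members, the saline libraries differed from each other far more than the extract libraries did. Among the exceptions was Swap70, with a ratio of replicate 1 to replicate 2 of 1.28 with saline and 1.20 with the extract. The ratio of PBS replicate 1 to PBS replicate 2 ran from 0.753 to 5.1 over the 9 members that passed and from 1.21 to 31.0 over the 23 that did not. Without MHE replicate 1 or without MHE replicate 2, no gene in the whole table (0%) passed edgeR's test (20 and 21 members had an unadjusted p under 0.05, of 2352 and 2596 genes). Without PBS replicate 1, 30 of 32 members passed, against 10.5% of genes called higher, and without PBS replicate 2, 24 passed, against 7.45%. In these fits the spread comes from the complete group alone, and the lone library is assumed to vary like it. DESeq2 called 27 members higher, against 8.39% of genes, and limma-voom called 16, against 5.5%.

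**Figure D1:**
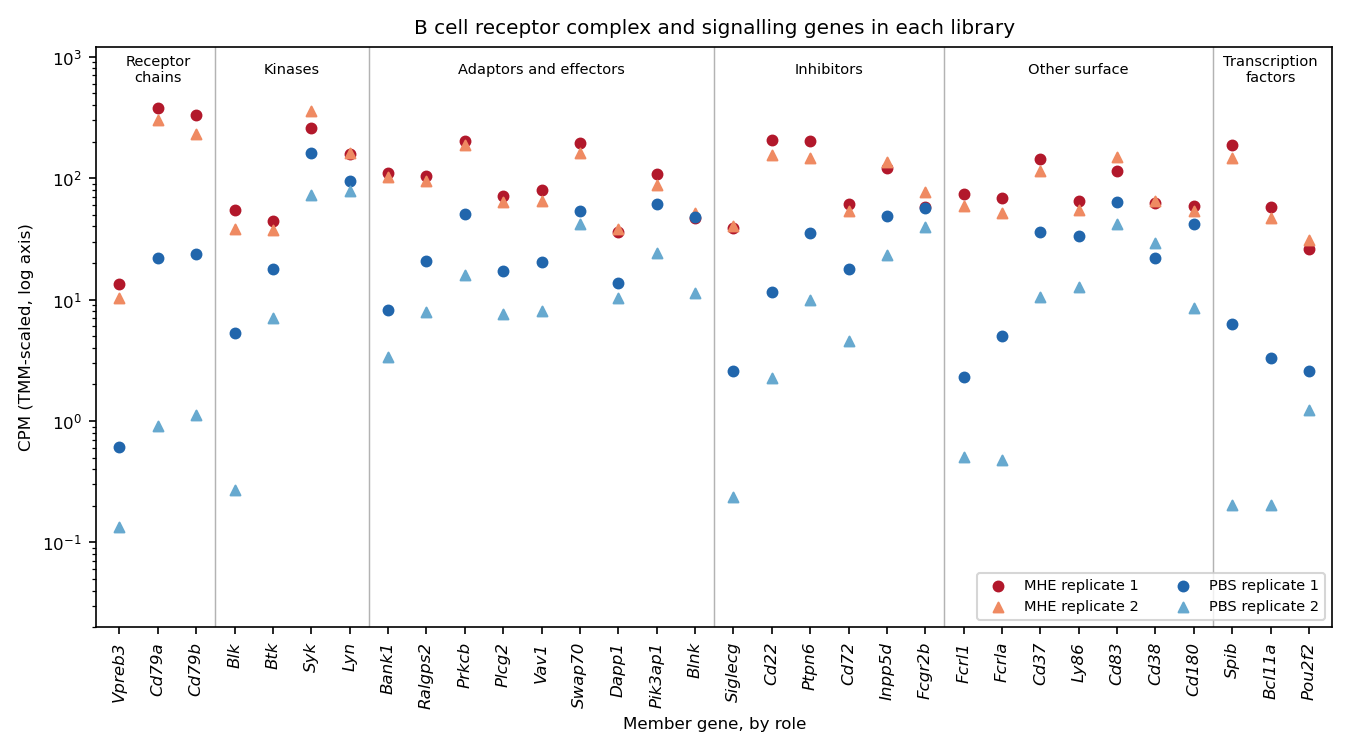
Level (CPM, TMM-scaled, log axis) of the 32 members in each of the 4 libraries, grouped by role and ordered by fold change within a role. Extract libraries lie above saline libraries in all members but Blnk, and the gap between the saline libraries is widest for Spib, Cd79a, Cd79b and Blk.

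The signalling chains of the receptor were among the most abundant members in the extract libraries and nearly without reads in PBS replicate 2. Cd79a (chromosome 7, 24897497 to 24901858 in GRCm38.p6) stood at 377 and 303 CPM (counts scaled to library size) in MHE replicates 1 and 2, and at 21.8 and 0.912 CPM in PBS replicates 1 and 2. Cd79b (chromosome 11, 106311341 to 106314562) stood at 331 and 229 CPM against 23.7 and 1.12 CPM. The groups did not overlap for either chain, and the lowest extract library exceeded the highest saline library 13.9-fold for Cd79a and 9.66-fold for Cd79b. Yet neither passed edgeR's test: the log2 fold changes were 4.91 ± 1.42 (SE, adjusted p = 0.111) and 4.50 ± 1.37 (adjusted p = 0.121), and PBS replicate 1 exceeded PBS replicate 2 by 23.9-fold and 21.2-fold. They had 8.52 and 7.95 with PBS replicate 1 left out and 3.98 and 3.57 with PBS replicate 2 left out, and both passed in each case. The counts behind the PBS replicate 2 values were 27 and 33 reads.

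The proportion of the chains to each other changed little beside their levels. Cd79a had more reads than Cd79b in both extract libraries and fewer in both saline libraries. The ratio of Cd79a to Cd79b reads was 1.14 and 1.33 in the extract libraries and 0.919 and 0.818 in the saline libraries. Scaled for exon length (RPKM, on GENCODE M21 exons), Cd79a had 259 and 208 and Cd79b 231 and 160 with the extract, ranks 1 and 2 of the 32 members in both libraries. With saline, Cd79a had 15 and 0.626 RPKM and ranked 5 and 22, and Cd79b had 16.6 and 0.783 RPKM and ranked 4 and 20. The order of the members by level thus differed between the saline libraries.

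Vpreb3, a B cell protein that associates with newly made immunoglobulin chains, rose with the extract. It had 13.4 and 10.3 CPM in the extract libraries and 0.614 and 0.135 CPM in the saline libraries, which rest on 17 and 4 reads. Its log2 fold change was 4.98 ± 0.72 (edgeR adjusted p = 0.0375), or 6.39 with PBS replicate 1 left out and 4.27 with PBS replicate 2 left out.

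Of the 4 kinases next to the receptor, none passed edgeR's test (4 had an unadjusted p under 0.05, and DESeq2 called 3 and limma-voom 0), and the B cell kinase Blk differed most. Blk, a SRC family kinase of B cells, had 54.5 and 37.9 CPM with the extract and 5.34 and 0.27 CPM with saline, a log2 fold change of 4.05 ± 1.19 (edgeR adjusted p = 0.114) that passed when PBS replicate 1 (7.38) or PBS replicate 2 (3.12) was left out. Lyn, the SRC family kinase that starts the cascade and also acts in mast cells and macrophages, had 158 and 161 CPM against 95.1 and 78.9 CPM, a log2 fold change of 0.87 ± 0.22 (adjusted p = 0.0845). Lyn differed least of the 7 shared members although its replicates lay closest together. Syk, which docks on the phosphorylated chains, had 260 and 355 CPM against 162 and 72.7 CPM (1.39 ± 0.45, adjusted p = 0.133). Btk, the TEC family kinase that activates PLCG2, had 44.0 and 37.7 CPM against 17.9 and 7 CPM (1.72 ± 0.47, adjusted p = 0.100). In all 4 kinases the extract libraries lay above the saline libraries. Syk passed without PBS replicate 1 (2.06), and Btk without PBS replicate 1 (2.53) or PBS replicate 2 (1.20). Per exon length, Lyn had 23.3 and 19.4 RPKM in the saline libraries, ranks 2 and 1 of the 32 members, and 38.8 and 39.5 RPKM in the extract libraries, ranks 9 and 6.

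Among adaptors and effectors, 4 of 9 rose: Bank1, Plcg2, Swap70 and Dapp1. Bank1, a B cell scaffold that links the receptor to calcium release, had 110 and 103 CPM with the extract and 8.19 and 3.35 CPM with saline (log2 fold change 4.20 ± 0.49, edgeR adjusted p = 0.0248; 4.97 without PBS replicate 1). Plcg2, the phospholipase that makes the calcium-releasing messenger, had 71.1 and 63.2 CPM against 17.2 and 7.54 CPM (2.44 ± 0.43, adjusted p = 0.0487; 3.14 without PBS replicate 1). It was the sole shared member to pass, and it lost its call when libraries were scaled by their totals. Swap70, an actin-linked exchange factor of activated B cells, had 194 and 162 CPM against 53.8 and 42.0 CPM (1.89 ± 0.25, adjusted p = 0.0299). Dapp1, the adaptor Bam32 that binds phosphoinositides downstream of PI3 kinase, had 35.8 and 38.2 CPM against 13.8 and 10.3 CPM (1.62 ± 0.23, adjusted p = 0.0364). Swap70 and Dapp1 passed with smaller folds than that of Cd79a, and their saline libraries lay within 1.28-fold and 1.33-fold of each other.

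The remaining adaptors and effectors did not pass. Ralgps2, a guanine nucleotide exchange factor abundant in B cells, missed the threshold narrowly: it had 104 and 94.0 CPM against 20.9 and 7.87 CPM (log2 fold change 2.78 ± 0.50, edgeR adjusted p = 0.0502). It passed under 7 of the 12 other settings. Prkcb, protein kinase C beta, had 201 and 186 CPM against 50.9 and 16 CPM (2.53 ± 0.58, adjusted p = 0.0734). Vav1, an exchange factor of all blood lineages, had 79.4 and 65.1 CPM against 20.3 and 8.04 CPM (2.35 ± 0.48, adjusted p = 0.0594). Prkcb and Vav1 passed when PBS replicate 1 (3.58 and 3.15) or PBS replicate 2 (1.94 and 1.84) was left out. Pik3ap1, the PI3 kinase adaptor BCAP, had 108 and 87.9 CPM against 61.2 and 24.0 CPM (1.20 ± 0.47, adjusted p = 0.177; it passed without PBS replicate 1, at 2.01).

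Blnk, the scaffold that joins SYK to BTK and PLCG2, stood apart from the other members. It had 47.2 and 51.2 CPM with the extract, 48.2 CPM in PBS replicate 1 and 11.3 CPM in PBS replicate 2, so that PBS replicate 1 lay between the extract libraries. Its log2 fold change was 0.73 ± 0.66 (edgeR adjusted p = 0.502), 0.04 without PBS replicate 2 and 2.11 without PBS replicate 1, where it passed.

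Of 6 inhibitory members, Cd22 rose. Cd22, a lectin of B cells that binds sialic acid and recruits SHP-1, had 207 and 155 CPM against 11.6 and 2.26 CPM (log2 fold change 4.71 ± 0.84, edgeR adjusted p = 0.0491; 6.30 without PBS replicate 1 and 3.98 without PBS replicate 2), and it lost its call without the filter on low counts. Siglecg, a related lectin that restrains B-1 cells, had 39.1 and 40.6 CPM against 2.56 and 0.237 CPM (4.84 ± 0.98, adjusted p = 0.0593). Cd72, another inhibitory receptor, had 61.6 and 53.3 CPM against 17.9 and 4.56 CPM (2.36 ± 0.65, adjusted p = 0.101), and its exons share 1423 bases with Tesk1 on the opposite strand, whose reads cannot be separated without strand. Siglecg and Cd72 passed when PBS replicate 1 (7.36 and 3.64) or PBS replicate 2 (3.97 and 1.69) was left out.

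The phosphatases that these receptors recruit lay below the B cell lectins in fold change. Ptpn6 (SHP-1) had 201 and 145 CPM against 35.1 and 10 CPM (log2 fold change 2.94 ± 0.64, edgeR adjusted p = 0.0683), and Inpp5d (SHIP-1) had 122 and 135 CPM against 49.1 and 23.4 CPM (1.83 ± 0.40, adjusted p = 0.0675). Both passed when PBS replicate 1 (4.09 and 2.44) or PBS replicate 2 (2.31 and 1.40) was left out. Fcgr2b, the inhibitory IgG receptor that macrophages also carry and that belongs to a family of similar genes, differed least of all members. It had 57.3 and 77.3 CPM against 56.8 and 39.5 CPM (0.48 ± 0.28, adjusted p = 0.310), so the lowest extract library and PBS replicate 1 were within 1.01-fold of each other, and it passed under none of the 12 other settings.

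Of 7 other surface proteins, Fcrl1 and Cd38 rose. Fcrl1, an Fc receptor-like protein of B cells, had 73.8 and 58.5 CPM against 2.31 and 0.507 CPM (log2 fold change 5.56 ± 0.72, edgeR adjusted p = 0.0303; 7.0 without PBS replicate 1 and 4.85 without PBS replicate 2). Cd38, a surface enzyme that consumes NAD and is found on many cell types, had 62.7 and 64.2 CPM against 22.1 and 29.4 CPM (1.30 ± 0.22, adjusted p = 0.0454). Cd38 was the sole member with a higher level in PBS replicate 2 than in PBS replicate 1. Fcrla, an intracellular relative of Fcrl1, had 68.2 and 51.7 CPM against 5.02 and 0.473 CPM (4.45 ± 1.02, adjusted p = 0.0745), and the tetraspanin gene Cd37 had 144 and 114 CPM against 35.8 and 10.4 CPM (2.49 ± 0.61, adjusted p = 0.0841). Both passed when PBS replicate 1 (6.96 and 3.62) or PBS replicate 2 (3.59 and 1.86) was left out.

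Cd180 and Ly86 belong to the toll-like receptor relatives of B cells and myeloid cells, CD180 being paired with MD-1, the product of Ly86. Cd180 had 58.8 and 53.9 CPM against 41.9 and 8.58 CPM (log2 fold change 1.16 ± 0.71, edgeR adjusted p = 0.337), and Ly86 had 65.2 and 54.1 CPM against 33.1 and 12.8 CPM (1.38 ± 0.47, adjusted p = 0.143). Cd83, an activation marker of B cells and dendritic cells, had 115 and 149 CPM against 63.8 and 41.5 CPM (1.32 ± 0.30, adjusted p = 0.0719). The groups did not overlap for these genes, but PBS replicate 1 lay closer to the extract libraries than to PBS replicate 2 for Cd180. All 3 passed without PBS replicate 1 (2.70, 2.20 and 1.65).

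Of the transcription factors, Pou2f2 rose. Pou2f2 (Oct-2, which binds the octamer) had 26.3 and 31.0 CPM against 2.56 and 1.22 CPM (log2 fold change 3.92 ± 0.43, edgeR adjusted p = 0.0238, the smallest among the members; 4.54 without PBS replicate 1). Spib, an ETS factor of B cells and plasmacytoid dendritic cells, had the largest fold of all members and did not pass: 188 and 145 CPM against 6.28 and 0.203 CPM (5.69 ± 1.39, adjusted p = 0.0824), on 174 and 6 reads in the saline libraries. Bcl11a, a zinc finger factor needed for B cell development, had 57.6 and 46.5 CPM against 3.28 and 0.203 CPM (4.91 ± 1.10, adjusted p = 0.0716). Spib and Bcl11a passed when PBS replicate 1 (9.64 and 7.96) or PBS replicate 2 (4.74 and 4.0) was left out.

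By median fold change, the B cell restricted class lay further from saline than the class shared with myeloid cells, and the narrow B cell set further still. Of the 25 restricted members, 8 rose, with a median log2 fold change of 2.78 and a range of 0.48 to 5.69. Of the 7 shared members, 1 rose, with a median of 1.83 and a range of 0.87 to 2.94. These class medians differed by 0.95 on the log2 scale, and by 0.81 to 1.11 with any 1 library left out. Of the 8 members of the narrow set, 4 rose, with a median of 4.60 and a range of 4.05 to 5.56, so each lay above every shared member. Because the set was chosen with earlier results of these data known, its distance from the shared class is a description only. The other 17 restricted members had a median of 1.89, close to the shared class, and 4 of them rose. Set against 3.97% of all genes called higher by edgeR, the shares were 32% of the restricted class, 14.3% of the shared class and 50% of the narrow set. That order did not hold by DESeq2, which called 20 of 25 restricted, 7 of 7 shared and 7 of 8 narrow members higher, against 8.39% of all genes. By edgeR, 21, 7 and 8 of them had an unadjusted p under 0.05. With 2 libraries against 2, no permutation of libraries can give a two-sided p under 0.333, and no p is given for the difference between classes.

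**Figure D2:**
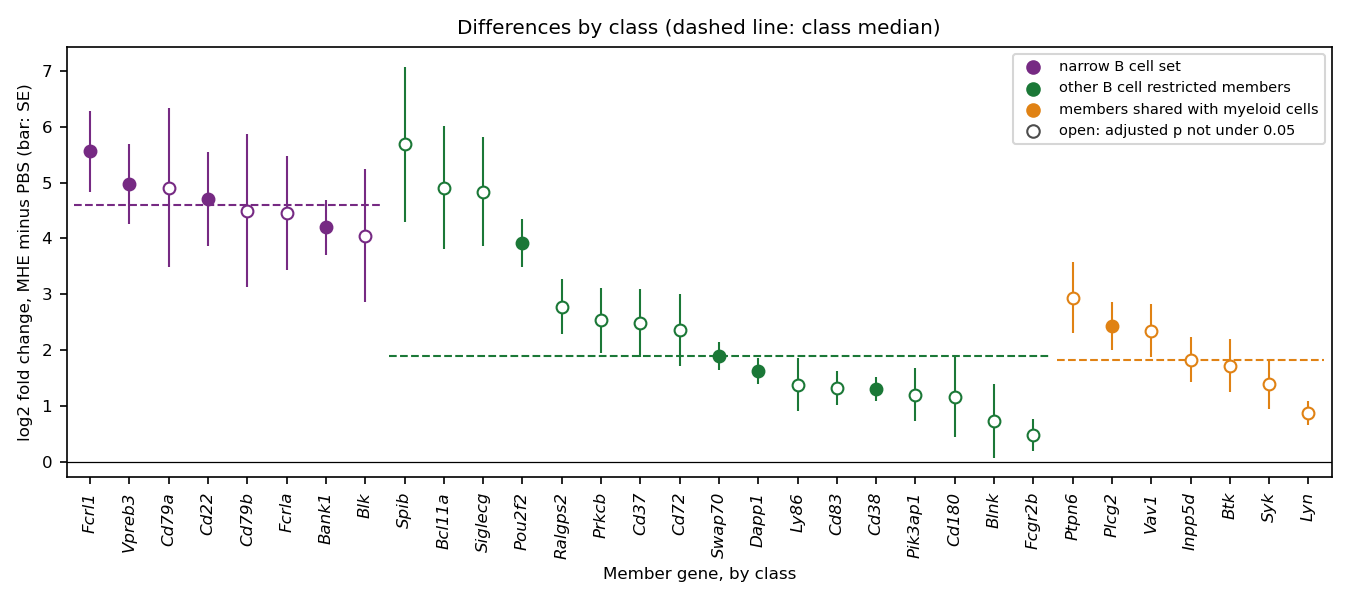
Log2 fold change (MHE minus PBS) of each member with its standard error as a bar, by class, where filled points passed edgeR's test at an adjusted p under 0.05 and dashed lines are class medians. The 8 members of the narrow B cell set lie between 4.05 and 5.56, above all 7 shared members, while the other restricted members run from 5.69 down to 0.48.

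Within a library, the median level of the restricted class was 68.2 and 64.2 CPM with the extract and 20.9 and 4.56 CPM with saline. The shared class had 122 and 135 CPM against 35.1 and 10 CPM, so the classes stood in similar proportion in both groups. That proportion had a spread between replicates of 0.313 on the log2 scale. By summed CPM, the order of classes did appear. The restricted class had 2.99 and 2.49 times the shared class with the extract, against 1.55 and 1.3 times with saline. Summed CPM of the narrow set was 1.32 and 0.985 times that of the shared class in the extract libraries, and 0.198 and 0.0435 times that in PBS replicates 1 and 2. The narrow set took 0.132% (Clopper-Pearson 95% interval 0.131 to 0.133) and 0.0994% (0.0982 to 0.101) of reads in the extract libraries. In the saline libraries it took 0.00785% (0.00752 to 0.00819) and 0.0008% (0.000707 to 0.000902). The shared class took 0.100% and 0.101% of reads with the extract and 0.0397% and 0.0184% with saline. The intervals cover counting error only, and the saline libraries lie apart by far more than that.

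The medians of the ratio between the saline libraries followed the same order of classes. PBS replicate 1 had the higher level in 31 of 32 members, against 51.0% of all genes tested. The ratio of PBS replicate 1 to PBS replicate 2 had a median of 7.85 over the narrow set, 2.66 over the other restricted members and 2.28 over the shared class, against 1.01 over all genes. It ran from 2.45 (Bank1) to 23.9 (Cd79a) in the narrow set and from 1.21 (Lyn) to 3.50 (Ptpn6) in the shared class, so the ranges overlapped. The gap was not particular to these genes. Of the marker lists described below, lymph node stroma and B cell markers had median ratios of 53.9 and 8.3, both above that of the narrow set. Of the 6 stroma markers tested, some had 0 reads in 1 saline library. T cell, mast cell and macrophage markers had median ratios of 2.98, 2.72 and 2.21. Adipocyte and progenitor markers had 0.655 and 0.859. A ratio above 4 was found in 12 of 32 members, all restricted, and in 5.63% of all genes. The ratio of MHE replicate 1 to MHE replicate 2 stayed between 0.731 (Syk) and 1.45 (Cd79b), with all 8 members of the narrow set higher in replicate 1. These ratios compare single libraries and carry no test.

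**Figure D3:**
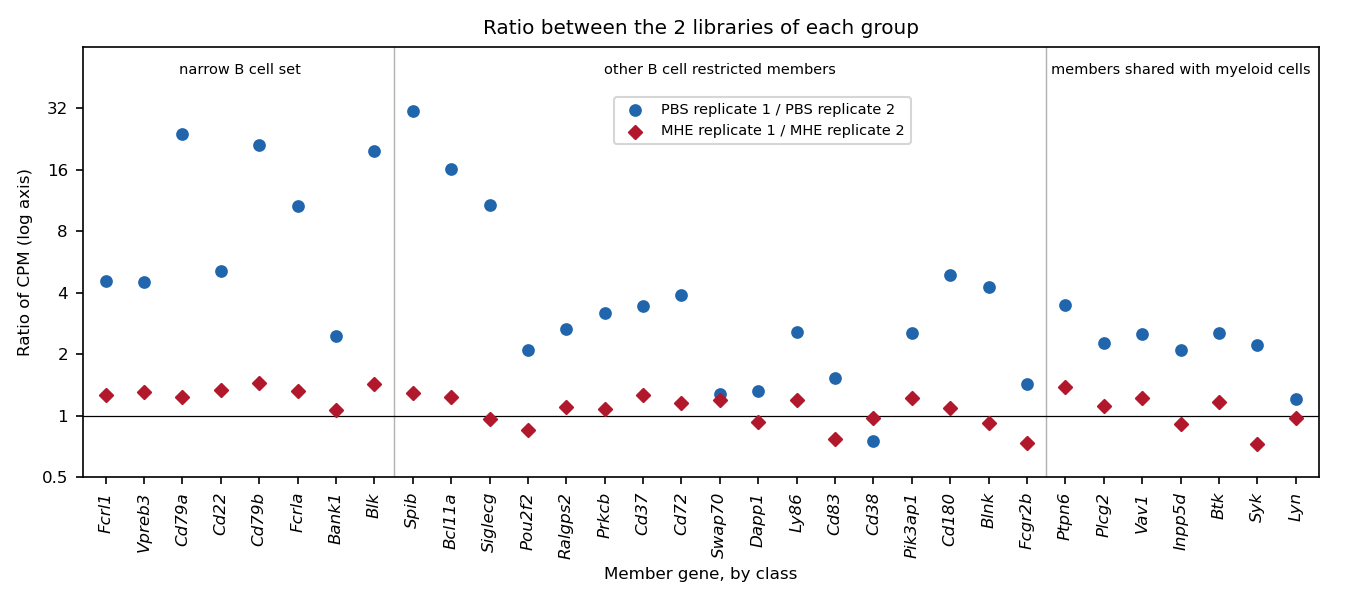
Ratio of CPM between the libraries of each group (log axis) for every member, by class, with circles for PBS replicate 1 over PBS replicate 2 and diamonds for MHE replicate 1 over MHE replicate 2. Saline ratios reach 31.0 (Spib) and 23.9 (Cd79a), while the extract ratios of all members lie between 0.731 and 1.45.

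The label of these genes was checked against B cell markers outside the 32. Ms4a1 (CD20) had 329 and 255 CPM with the extract and 23.5 and 0.811 CPM with saline, and the B cell identity factor Pax5 had 190 and 196 against 5.70 and 0.135 CPM. Their extract libraries lay far above both saline libraries, as those of Cd79a did, and like it they did not pass edgeR's test (log2 fold changes of 4.59 and 6.05, adjusted p = 0.129 and 0.0796). With PBS replicate 1 left out they had 8.47 and 10.42, with PBS replicate 2 left out 3.65 and 5.09, and both passed in each case. Of 8 B cell markers tested, 4 rose, and 7 with either PBS library left out. Ebf1, which fat cells and their precursors also express, had -0.42 and an adjusted p of 0.499. The summed level of the other 7 was 1231 and 1006 CPM with the extract and 52.2 and 3.75 CPM with saline. Of 10 B cell markers listed, 8 were among the gene symbols counted, and the immunoglobulin heavy chain genes Ighm and Ighd were not. Other genes of the heavy chain were not analysed here.

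Markers of some other cells moved with these values, to different degrees, and those of others did not. All 13 T cell markers rose (summed level 1047 and 790 CPM against 41.3 and 14.3 CPM), as did 3 of 6 lymph node stroma markers tested (818 and 479 CPM against 146 and 14.5 CPM; 6 and 5 of 6 without PBS replicates 1 and 2, respectively). Ccl21a, a chemokine of lymphatic and lymph node stroma with near-identical gene copies, had 630 and 375 CPM against 124 and 1.22 CPM, a 102-fold gap between the saline libraries. Macrophage markers did not follow: none of 13 passed by edgeR, DESeq2 or limma-voom, none had an unadjusted p under 0.05 by edgeR, their median log2 fold change was -0.04, and their summed level was 3047 and 3656 CPM with the extract against 4962 and 2119 CPM with saline. The macrophage genes Adgre1 (F4/80) and Cd68 had their highest level in PBS replicate 1 (200 and 308 CPM). With PBS replicate 2 left out the median of the macrophage list was -0.44 and 1 passed, lower with the extract, and with PBS replicate 1 left out it was 0.38. Of 11 dendritic cell markers 5 rose, and of 9 plasma cell markers 1 did. The plasma cell fold changes ran from -1.21 to 2.90 on the log2 scale, with 7 of 9 positive. Their median was 0.79, or 1.60 and 0.23 without PBS replicates 1 and 2, respectively. Of 8 mast cell markers none passed by edgeR or limma-voom and 1 by DESeq2 (median 0.93, 1 with an unadjusted p under 0.05), and 5 passed without PBS replicate 1. Of 8 monocyte and neutrophil markers tested, Ly6c2 (2.73) and Cxcr2 (4.76) rose, with a list median of 0.51 and a summed level of 236 and 184 CPM against 191 and 63.7 CPM. Without PBS replicate 1, 4 of the 8 rose. Of 8 natural killer cell markers, Eomes (4.37) and Prf1 (3.41) rose, or 4 by DESeq2, 6 without PBS replicate 1 and 3 without PBS replicate 2, with a list median of 1.64 and a summed level of 54 and 56.6 CPM against 14.8 and 7.84 CPM. The part of these cells in the values of the shared members, and of lymph node tissue in those of the restricted members, was not tested. Adipocyte markers were present in every library of this stromal fraction, at 21860 and 13460 CPM in sum with the extract against 24310 and 34400 CPM. Their median log2 fold change was -0.63, with 1 of 8 positive and 1 past edgeR's threshold, lower with the extract. Progenitor markers stood at 1288 and 1809 CPM against 2174 and 1827 CPM. Their median was -0.21, with 4 of 9 positive and 1 past the threshold, higher with the extract.

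**Figure D4:**
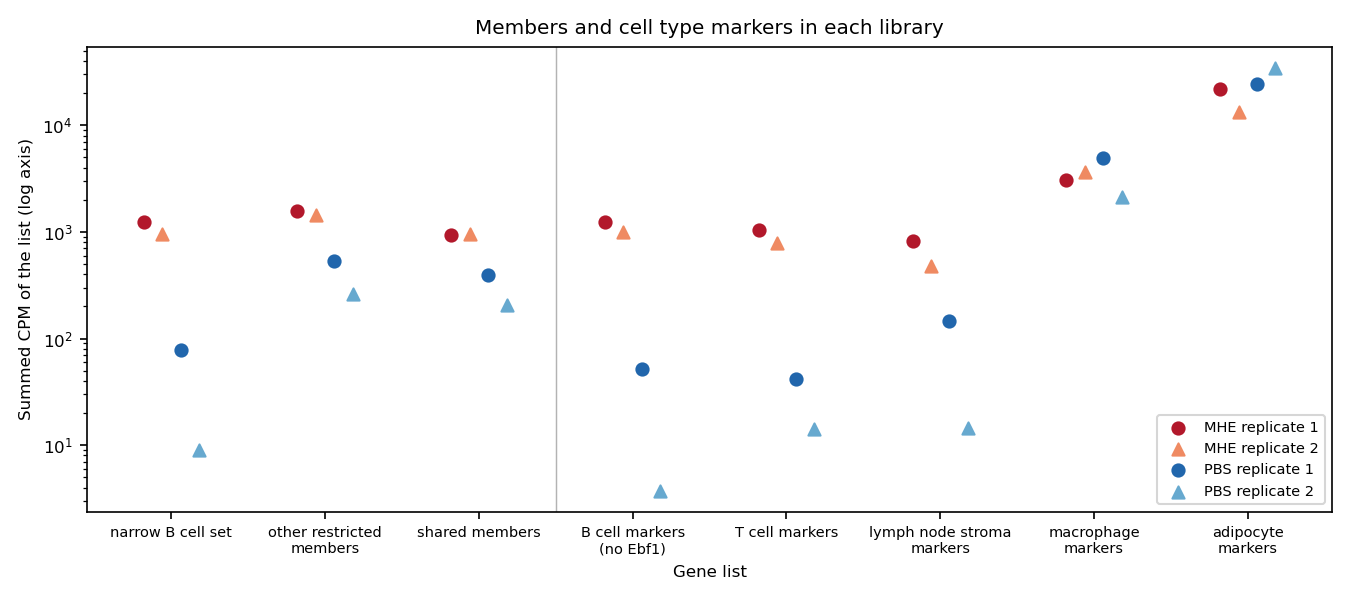
Summed CPM (log axis) in each library of the narrow B cell set, the other restricted members, the shared members and 5 marker lists. The narrow set, the B cell markers (without Ebf1), the T cell markers and the lymph node stroma markers are high in both extract libraries and lowest in PBS replicate 2. Macrophage markers are highest in PBS replicate 1 and also lowest in PBS replicate 2.

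Beyond the 32, a list of 62 other genes of the pathway was examined, of which 14 (22.6%) rose, against 3.97% of all genes, with a median log2 fold change of 0.92. None fell by edgeR (3 had an unadjusted p under 0.05, and 3 were lower by DESeq2 and 0 by limma-voom). The inhibitor gene Nfkbie had 61.7 and 56.5 CPM against 8.23 and 7.54 CPM (log2 fold change 2.91 ± 0.20, edgeR adjusted p = 0.0192). The NF-kappaB subunit gene Rel had 92.4 and 103 CPM against 15.3 and 13.9 CPM (2.74 ± 0.21, adjusted p = 0.0192), and Malt1, a protease of the NF-kappaB pathway, had 89.4 and 91.1 against 30.8 and 23.5 CPM (1.73 ± 0.22, adjusted p = 0.0292). In contrast to Cd79a, the saline libraries lay within 1.09-fold of each other for Nfkbie and within 1.11-fold for Rel.

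Pik3cd, the leukocyte PI3 kinase subunit that the adaptor BCAP engages, had 173 and 145 CPM against 23.5 and 10.8 CPM (log2 fold change 3.21 ± 0.43, edgeR adjusted p = 0.0331; 3.86 without PBS replicate 1). The calcium channel gene Itpr3 rose by 2.09, the membrane adaptor Pag1 by 2.67, the calcium-dependent factor Nfatc1 by 1.47 and the B cell complement receptor Cr2 by 7.15. With PBS replicate 1 left out, Cr2 had 9.06, and 6.35 with PBS replicate 2 left out. Rasgrp1 and Cd5, best known from T cells, rose by 4.32 and 4.99 (5.02 and 5.91 without PBS replicate 1), beside the T cell markers, of which Cd5 is one. The remaining 4 were Fyn, Csk, Nfkb1 and Pik3cg. Of the 62, 10 had negative fold changes, none past the threshold, among them the calcium sensor gene Stim1 (-0.89, adjusted p = 0.132) and the co-receptor partner gene Cd81 (-0.67, adjusted p = 0.162), both known from many cell types. Without MHE replicate 1 or MHE replicate 2 none of the 62 passed, without PBS replicate 1 there were 33 higher and 1 lower, and without PBS replicate 2 there were 29 higher.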

How the data were processed

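Per the labels' protocols, Trizol was used to extract total RNA and Illumina's standard steps to make libraries. The authors deposited raw read counts per gene symbol, not normalized, in 1 file per library. The submitters' processing notes name TopHat2, edgeR, limma and the build mm10. Not given in the sources used here are versions, counting program, annotation and strand, and reads of overlapping, antisense or similar genes cannot be separated. Exons of 10 of the 32 members overlap another GENCODE M21 gene model (Cd22, Cd72, Fcgr2b, Cd37, Pou2f2, Cd180, Bcl11a, Swap70, Lyn and Ptpn6). Libraries held 31052064 and 27161882 (MHE) and 27695144 and 33391075 (PBS) counts.

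The model of edgeR 4.0.16 (R 4.3.3) was fitted to the counts of all genes (filterByExpr with minimum count 10 and minimum total 15, TMM factors of 1.070, 1.049, 1.005 and 0.8864, robust quasi-likelihood fit and test). The adjusted p is Benjamini-Hochberg over 16196 genes, with a threshold of 0.05. A log2 fold change is MHE minus PBS, with the standard error taken as its size over the square root of F. CPM uses the TMM factors, and RPKM divides it by exon length. The common biological coefficient of variation was 33.6%. The procedure was tested on simulated data. Libraries of 1 group differed by more than sampling noise (chi-square per degree of freedom of 134 and 166), and p-values measure the spread between these libraries.

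The members and lists were chosen with earlier results of these data known. All members could be named, as could up to 10 other pathway genes with the smallest p and the leading markers of each list, except 1 that is not reported here. Names outside that rule (Fyn, Csk, Nfkb1, Pik3cg, Stim1, Cd81, Ccl21a, Ebf1, Ly6c2, Cxcr2, Eomes and Prf1) were chosen after their values were seen. Promoters come from RefSeq (GRCm38.p6, the assembly of mm10), where 28 of 32 members matched, and coordinates from its gene table, where all 32 did. The other settings were median-of-ratios factors, library totals, no filter, 1 CPM in 2 libraries together with 50 counts as a stricter one, DESeq2 1.42.0, limma-voom (limma 3.58.1), the newer quasi-likelihood setting, a replicate block, and leaving out each library.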

Additional observations from a re-analysis of the deposited data

How the results depend on the processing

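All 32 members kept a positive log2 fold change under each of the 12 other settings. The count of 9 members higher was 8 to 10 with the other scalings, filters and quasi-likelihood setting, 16 with limma-voom and 27 with DESeq2, and 0 to 30 with a library left out. The count of all genes called, 799, was 2969 with DESeq2 and 0 to 2750 with a library left out, and the count of other pathway genes called in either direction, 14 (all higher), was 35 with DESeq2 (32 higher and 3 lower) and 0 to 34 with a library left out (34 being 33 higher and 1 lower). The median of the narrow B cell set, 4.60, ran from 3.84 to 6.98 with a library left out, and setting that set in place of the whole restricted class gave a difference from the shared class of 2.78 in place of 0.95. The cause was not tested, other than that leaving out a library leaves fewer samples. The replicate numbers are not known to pair libraries: deviations of MHE replicate 1 and PBS replicate 1 from their group means correlated at 0.12 across 16196 genes, which are not independent. The replicate block gave 9 members higher, the same genes, and 764 calls in all. With library totals alone the median of all genes was 0.14, and the restricted and shared medians were 2.91 and 1.96. Reads of Vpreb3, Spib, Bcl11a, Siglecg and Blk in PBS replicate 2 numbered 4 to 8, which limits their fold changes.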
